A study of Homo sapiens with 43 samples.

Results

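The keratin genes of the human genome sit in 2 clusters, and H3K27ac, Sox2, Brn2 and p63 peaks over both clusters are described here for lung squamous cell carcinoma cell lines. The members are all peaks of the 27 deposited lists that overlap the type II cluster (hg19 chromosome 12, 52560001 to 53350000, KRT80 to KRT18) or the type I cluster (hg19 chromosome 17, 38800001 to 39800000, ending past KRT17). They number 1050 of the 650700 peaks used (0.161%), 487 in the type II and 563 in the type I window, and the 1.79 Mb of both windows are 0.0590% of the genome that peaks reach. By target, 926 are H3K27ac peaks, 111 Sox2 peaks, 8 p63 peaks and 5 Brn2 peaks.

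Chromatin immunoprecipitation with sequencing (ChIP-seq) was done in established lines grown in RPMI-1640 with serum, with no treatment named in the labels, using antibodies to H3K27ac (Abcam), Sox2 (R&D), p63 (Santa Cruz) and Brn2 (Cell Signaling). Of 43 labelled samples, 27 have a peak list, and 16 inputs were not analysed here. Lines are grouped by which ChIP experiments the labels list. Set A is LK2 and NCI-H520 (Sox2 and Brn2 ChIP), set B is HCC95, KNS62 and HCC2814 (Sox2 but no Brn2 ChIP), and set C (H3K27ac ChIP alone) is HCC2279, HCC2450, NCI-H2887, Calu-1, HARA, EBC-1, LC-1/SQSF and SQ-1. All 13 lines of these sets are unmodified. LK2_GFP and LK2_DNp63 carry the name of LK2, with 1 library per target each. How they were made, and in how many clones, is not given in the sources used here. In the field, DNp63 usually stands for the short p63 form made in basal cells, and GFP for green fluorescent protein. The sets say what was measured in a line, and not which factors the line expresses.

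Keratins are the intermediate filament proteins of epithelial cells. Each filament pairs a type II keratin with a type I keratin, and the pair depends on the kind of epithelium. KRT8 with KRT18 is the pair of simple epithelia, joined there by KRT7 and KRT19. KRT5 with KRT14 is the pair of the basal layer, where KRT15 is also made, and KRT6A, KRT6B, KRT16 and KRT17 are keratins of activated or proliferating squamous cells. KRT13 with KRT4 belongs to mucosal squamous epithelia and KRT1 with KRT10 to the upper epidermis, while most other members serve the hair follicle. KRT5 and KRT14 stainings are used to recognise squamous carcinoma. Acetylation of histone H3 at lysine 27 (H3K27ac) marks promoters and enhancers in use. Sox2 works in stem cells and foregut progenitors, p63 directs the basal cells of stratified epithelia, and Brn2 is a neural factor with a POU domain. All keratins are read here through chromatin marks, and not through their transcripts or proteins.

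The RefSeq promoter table (GRCh38.p14) holds 2 of the 4 promoters looked for, those of KRT5 and KRT8, and lacks KRT14 and KRT18. That of KRT5 is shown because H3K27ac lay near its start in 5 of 13 lines. The entry of KRT8 is not shown, since it may belong to another start of the gene than the one read here. The run is the 250 bases before the KRT5 start, 5′ to 3′, on the minus strand of GRCh38.p14, at chr12:52520395-52520644. Capitals mark the loose core of the p53 family that p63 belongs to (CNNG, any 6 bases, CNNG). The SOX core ACAANG was searched too, and both cores in either orientation.
KRT5: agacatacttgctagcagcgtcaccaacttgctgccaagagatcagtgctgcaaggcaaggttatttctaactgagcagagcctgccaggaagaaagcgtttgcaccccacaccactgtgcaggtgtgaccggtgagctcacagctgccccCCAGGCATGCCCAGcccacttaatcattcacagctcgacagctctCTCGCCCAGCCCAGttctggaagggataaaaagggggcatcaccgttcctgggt

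The KRT5 promoter holds 2 matches to the p53-family core, from 99 to 86 and from 54 to 41 bases before the start, and none to the SOX core. Such matches are common. Of 35116 promoters, 68.6% hold the p53-family core and 30.9% the SOX core. AP-1 sites (TGANTCA, in 6.57% of promoters), TATAAA (10.7%) and GC boxes (GGGCGG, 42.6%) were searched on both strands and are not in this window. No searched motif overlaps another in it.

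The H3K27ac lists held 16470 to 43480 used peaks and covered 24.6 to 73.7 Mb, with LK2 the lowest. Sequencing depth is unknown for every list, so no interval of a length can be given. Keratin windows held 23 to 98 H3K27ac peaks per library. SQ-1 had most (98), followed by HARA (96), and LK2 replicate 2 and NCI-H520 replicate 2 had fewest (23 each). In LK2_GFP there were 38 and in LK2_DNp63 55. The copy number of the windows was not measured, and its part in the peaks of a line was not tested.

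The windows were divided into 16 zones of neighbouring genes. Covered length means the base pairs of a zone inside H3K27ac peaks of a library, and for LK2 and NCI-H520 both libraries are given. The zone of KRT75, KRT6B, KRT6C, KRT6A and KRT5 (KRT5/6, chromosome 12, 52810001 to 52930000) held H3K27ac in some lines and none in others. HCC95 had 19.99 kb of covered length there, KNS62 16.2 kb and HCC2814 22.6 kb. In set C, HARA had 24.8 kb, LC-1/SQSF 20.3 kb and HCC2450 1.41 kb, while HCC2279, EBC-1, Calu-1, SQ-1 and NCI-H2887 had none. Both LK2 libraries had none, and NCI-H520 had 2.19 and 1.80 kb. All 3 set B lines thus lay above both set A lines, whereas set C held lines at both ends.

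KRT14, KRT16 and KRT17 (KRT14/16/17, chromosome 17, 39730001 to 39800000) are the type I side of the same epithelial program. HCC95 had 33.1 kb, KNS62 9.35 kb and HCC2814 20.4 kb of covered length there. HARA had 27.2 kb and LC-1/SQSF 13.2 kb, Calu-1 2.91 kb, SQ-1 2.45 kb, HCC2279 1.57 kb and EBC-1 1.23 kb. HCC2450, NCI-H2887 and all 4 libraries of LK2 and NCI-H520 had none. The 5 lines with over 15 kb at KRT5/6 were the 5 with most at KRT14/16/17, which is a description of these lists and was not tested.

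**Figure D1:**
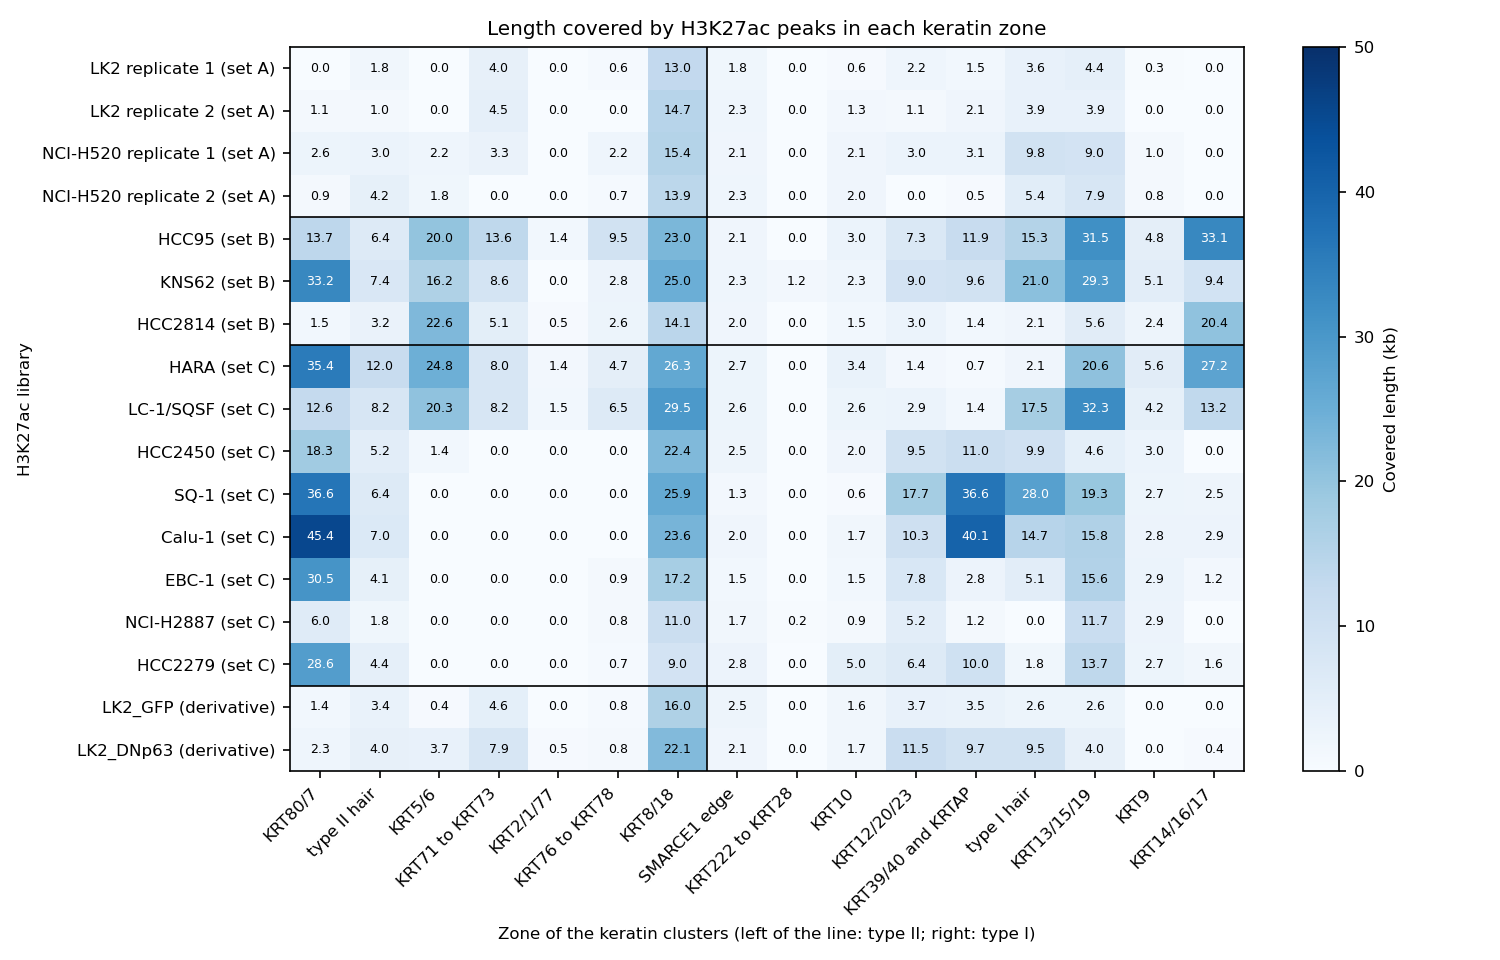
Covered length in kb (colour and printed value) of H3K27ac peaks in 16 keratin zones (columns, in chromosome order) for 17 libraries (rows, by set). The KRT5/6 and KRT14/16/17 columns are filled in HCC95, KNS62, HCC2814, HARA and LC-1/SQSF and nearly empty in LK2 and NCI-H520, and the KRT8/18 column is filled in every row (9.03 to 29.5 kb).

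The zone of KRT8 and KRT18 (KRT8/18, chromosome 12, 53260001 to 53350000) held H3K27ac in every line. Part of this length belongs to a region nearest to KRT78 (53259043 to 53275040), found in all 13 lines. Within 2 kb of the KRT8 start, HCC2814 had none. LK2 had 12.998 and 14.7 kb of covered length, NCI-H520 15.4 and 13.9 kb, and set B lines 14.1 to 24.97 kb. Set C ran from 9.03 kb in HCC2279 to 29.5 kb in LC-1/SQSF, with a median of 22.97 kb. After every library was scaled to 50 Mb in all, the mean was 20.4 kb ± 8.003 (SD) over the 2 lines of set A, 20.2 kb ± 2.02 over the 3 of set B and 17.3 kb ± 5.80 over the 8 of set C. The ranges of the 3 sets overlapped (14.8 to 26.1, 18.4 to 22.4 and 6.33 to 25.8 kb). At KRT5/6 the same means were 1.01 kb ± 1.42, 21.7 kb ± 12.5 and 4.49 kb ± 8.18. At KRT14/16/17 both set A lines were at 0, set B averaged 22.6 kb ± 13.7 and set C 4.82 kb ± 7.71.

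KRT13, KRT15 and KRT19 lie side by side in a zone of 50 kb (chromosome 17, 39650001 to 39700000) that is dense in H3K27ac. Covered length there ran from 3.91 to 8.99 kb in the 4 set A libraries, from 5.57 kb (HCC2814) to 31.5 kb (HCC95) in set B and from 4.56 kb (HCC2450) to 32.3 kb (LC-1/SQSF) in set C. Set A and set B overlapped on this unscaled measure. KRT80, an epithelial keratin less studied than the others, and KRT7 share the first zone of the type II cluster. It was low in LK2 (0 and 1.05 kb), NCI-H520 (2.62 and 0.851 kb) and HCC2814 (1.52 kb), and reached 5.99 to 45.4 kb in the other 10 lines.

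Inner root sheath keratins of the hair follicle (KRT71, KRT72, KRT73 and KRT74) fill the zone next to KRT5. H3K27ac covered 13.6 kb there in HCC95, 8.64 kb in KNS62, 5.05 kb in HCC2814, 8.01 kb in HARA and 8.19 kb in LC-1/SQSF. LK2 had 3.95 and 4.46 kb, NCI-H520 3.28 kb in one library and none in the other, and the remaining 6 lines none. LK2 thus carried H3K27ac in this stretch and none at KRT5/6 beside it. The length lay mostly away from the gene starts, as in a region 6.0 kb from KRT74 (52969959 to 52978061) found in 7 lines. Within 2 kb of the starts, KRT74 had H3K27ac in HCC95 alone (0.042 kb), and KRT71, KRT72 and KRT73 in no unmodified line. Among the type I hair keratins the length ran from 0 in NCI-H2887 to 28.0 kb in SQ-1, and KRT39, KRT40 and the keratin-associated protein genes reached 40.1 kb in Calu-1 and 36.6 kb in SQ-1, against at most 11.9 kb in other unmodified lines. Least H3K27ac lay over KRT222 to KRT28, at 1.20 kb in KNS62, 0.199 kb in NCI-H2887 and none in the 11 other lines, and over KRT2, KRT1 and KRT77, at most 1.48 kb in any line. Over the 13 lines, with the library pairs of LK2 and NCI-H520 averaged, the type II hair keratins had 1.40 to 11.96 kb, KRT76 to KRT78 0 to 9.46 kb and KRT10 0.573 to 5.0 kb. KRT12, KRT20 and KRT23 had 1.35 to 17.7 kb, KRT9 0.128 to 5.56 kb and the stretch beside SMARCE1 1.34 to 2.84 kb.

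Merged over the 13 lines, the windows held 149 H3K27ac regions. Of these, 7 were acetylated in all 13 lines (4.70%, against 6.64% of all regions of the genome) and 68 in 1 line (45.6%, against 50.7%).

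Single genes were read from the H3K27ac length within 2 kb of a gene's start, 4 kb in all. Of 55 keratin starts, 2 were acetylated in all 13 lines, those of KRT18 and KRT19, 5 in 7 to 12 lines, 20 in 1 to 6 lines and 28 in none. KRT8 was acetylated in 12 lines, missing HCC2814, KRT15 in 11, KRT80 in 10, and KRT7 and KRT16 in 8 each. Per line, set A had 4 (LK2) and 6 (NCI-H520) acetylated starts, set B 13 (HCC2814), 15 (HCC95) and 18 (KNS62), and set C 5 (NCI-H2887) to 16 (HARA).

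Basal and squamous starts (KRT5, KRT6A, KRT6B, KRT14, KRT15, KRT16 and KRT17) were acetylated in 6 of 7 cases in HCC95 and KNS62 and in 7 of 7 in HCC2814. HARA had 7, LC-1/SQSF 6 and Calu-1 3. SQ-1, EBC-1 and HCC2279 had 2 each, and HCC2450, NCI-H2887 and NCI-H520 had 1 each. Any overlap counts, and some calls are short, such as KRT15 in Calu-1 (0.117 kb) and KRT6A in HCC2450 (0.388 kb). With starts placed to 1 kb, such calls may depend on the rounding. LK2 had 0 of 7, so the keratins that define the squamous label carried no H3K27ac at their starts in this line. KRT5 was acetylated in HCC95 (4.0 kb), HARA (4.0 kb), HCC2814 (3.99 kb), KNS62 (3.88 kb) and LC-1/SQSF (1.77 kb) and in no other line. Its partner KRT14 was acetylated in HCC95 (4.0 kb), HARA (3.98 kb), HCC2814 (2.95 kb) and Calu-1 (1.65 kb), and not in KNS62 or LC-1/SQSF. In these 2 lines KRT16 and KRT17 were acetylated while KRT14 was not, and in Calu-1 KRT14 was acetylated without KRT5. KRT13 was acetylated in the same 5 lines as KRT5, at 4.0 kb in 4 of them and 2.27 kb in HCC2814. Its mucosal partner KRT4 was acetylated in no line.

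Simple-epithelial starts (KRT7, KRT8, KRT18 and KRT19) were acetylated in 3 of 4 cases in LK2, 4 in NCI-H520, 2 to 4 in set B and 3 or 4 in set C. In NCI-H520 the KRT7 start counts by a mean of 0.0135 kb, against 3.98 kb in SQ-1 and 4.0 kb in Calu-1. HARA (0.115 kb) and HCC2450 (0.33 kb) also count at KRT7 by short lengths. With starts placed to 1 kb, these calls may depend on the rounding. Starts of the upper epidermis (KRT1, KRT2, KRT10) were acetylated once, KRT10 in HCC2279 (2.01 kb). KRT20, the intestinal keratin, and KRT9, that of palm and sole, were acetylated in no line. KRT6A, KRT6B and KRT6C are near-identical in sequence, as are parts of KRT14, KRT16 and KRT17 with pseudogenes elsewhere, so peaks at these genes depend on how reads with several matches were treated, which is not given in the sources used here.

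**Figure D2:**
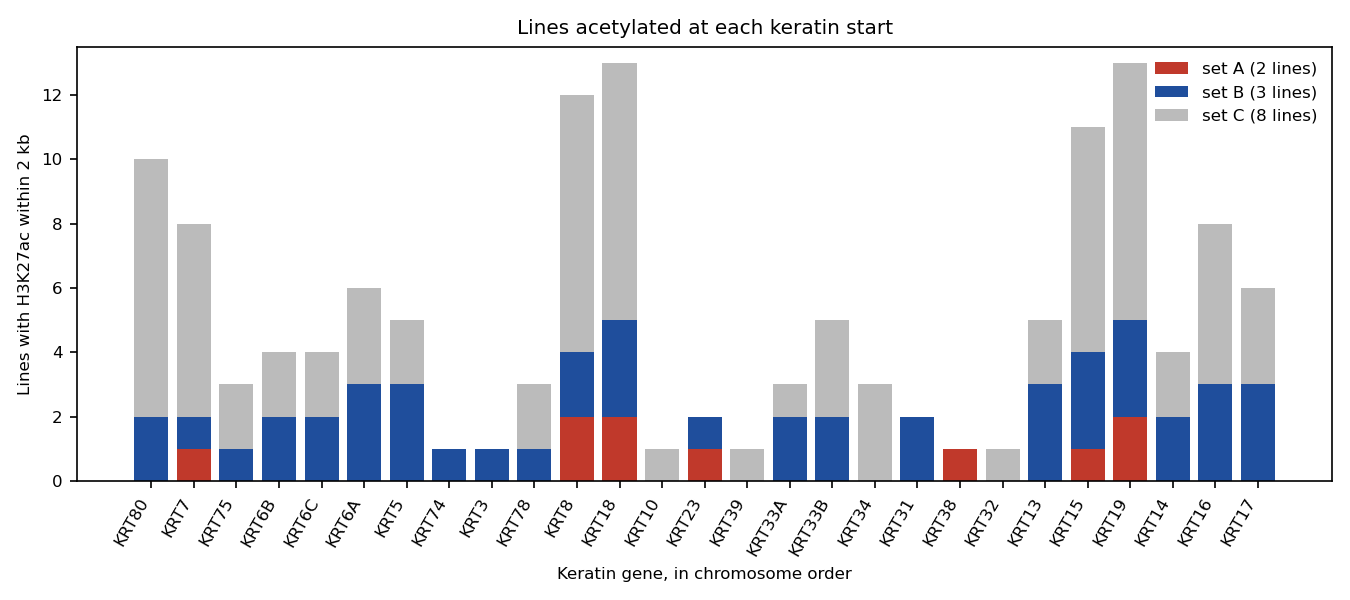
Number of unmodified lines (stacked bars by set, with 2, 3 and 8 lines in sets A, B and C) with an H3K27ac peak within 2 kb of each keratin start, for the 27 starts acetylated in any line. KRT18 and KRT19 reach 13 lines, and KRT5, KRT6A, KRT14, KRT16 and KRT17 have no set A line.

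Whether the sets differ was tested over the whole genome. Covered length per bin of 50 kb, scaled and taken as log2(length + 1000 bp), was fitted with limma over 13 lines in 1 model, and p-values were adjusted over all 8603 bins with a mean of at least 2 kb. Of the 36 bins that touch the keratin windows, 17 passed this filter. A line without peaks takes the value of the pseudocount, so a log2 difference against a set at 0 follows the pseudocount and is not given as a fold.

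Set A was lower than set B in 4 of the 17 keratin bins and higher in 0, against 8.65% of all bins called in either direction and 5.31% called lower (limma, adjusted p under 0.05). The bins hold KRT80, KRT5, KRT9 with KRT14, and KRT16 with KRT17. At KRT5 (chromosome 12, 52900001 to 52950000) scaled length was 0 in LK2 and NCI-H520, and 17.6 kb in HCC95, 7.35 kb in KNS62 and 18.1 kb in HCC2814. Set B averaged 14.3 kb ± 6.06 (SD, n = 3 lines). The log2 difference was -3.84 (SE 1.07, limma adjusted p = 0.0396). At KRT16 and KRT17 (chromosome 17, 39750001 to 39800000) both set A lines were again at 0, and HCC95 had 17.8 kb, KNS62 5.85 kb and HCC2814 20.8 kb. Here the log2 difference was -3.82 (SE 1.03, limma adjusted p = 0.0349). At KRT9 and KRT14 (chromosome 17, 39700001 to 39750000) LK2 had 0.220 kb and NCI-H520 0.905 kb. HCC95 had 14.9 kb, KNS62 4.80 kb and HCC2814 15.3 kb, giving -2.91 on the log2 scale (SE 0.62, limma adjusted p = 0.00978). Of this length, 4.14 kb in HCC95, 3.77 kb in KNS62 and 3.77 kb in HCC2814 lay in the KRT9 zone. KNS62 had none within 2 kb of the KRT14 start, and no line had any within 2 kb of the KRT9 start. This bin is thus not a reading of KRT14 alone. At KRT80 (chromosome 12, 52550001 to 52600000) set A was at 0 and set B at 8.48 kb ± 5.67 (n = 3). That gave -3.03 on the log2 scale (SE 0.64, limma adjusted p = 0.00942). In the same bin LK2_GFP had 2.03 kb and LK2_DNp63 4.36 kb scaled, and neither library is in the fit.

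In each of these 4 bins every set A line lay below every set B line. Counted in either direction, sets A and B did not overlap in 9 of 17 keratin bins and in 39.9% of all bins. Among these 9, the KRT18 bin had set A above set B. The median log2 difference was -1.20 over the 17 keratin bins and -0.18 over all bins. Leaving out 1 line of set A leaves a single line, which the fit takes to vary like the others. Without LK2, limma called 0 keratin bins, and adjusted p became 0.197 (KRT5), 0.189 (KRT16/17), 0.119 (KRT9/14) and 0.0819 (KRT80). Without NCI-H520 it called 0, with 0.225, 0.214, 0.0713 and 0.108. The KRT5 bin also lost its call without HCC95 (0.114), KNS62 (0.0579) or HCC2814 (0.113), and the KRT16/17 bin without HCC95 (0.106) or HCC2814 (0.109). Without scaling, the KRT5 and KRT16/17 calls were lost (0.0793 and 0.0645), and when every list was cut to as many top peaks as the shortest, those of KRT5 (0.0536), KRT16/17 (0.0919) and KRT80 (0.220). KRT80 also lost its call with a pseudocount of 5000 bp (0.0906), and KRT5 without the filter (0.0502). Over all alternatives the adjusted p of KRT5 ran from 0.00531 to 0.225, that of KRT16/17 from 0.0129 to 0.214, that of KRT9/14 from 0.00147 to 0.119 and that of KRT80 from 0.000378 to 0.220.

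The remaining bins over named zones were not called between set A and set B. At KRT6C and KRT6A (chromosome 12, 52850001 to 52900000) LK2 had 0 and NCI-H520 2.01 kb, against 4.48, 4.38 and 13.8 kb in HCC95, KNS62 and HCC2814 (log2 -2.13, SE 1.00, limma adjusted p = 0.235). The KRT6B bin beside it was under the filter. At KRT13, KRT15 and KRT19 the log2 difference was -1.02 (SE 0.64, adjusted p = 0.408). KRT8 and KRT18 fall in different bins with values of opposite sign. The bin edge at 53300000 cuts the H3K27ac region at KRT8 (53293097 to 53304236), so part of it counts in the KRT18 bin. HCC2814 had 19.6 kb in the KRT8 bin and none within 2 kb of the KRT8 start. The bins are thus not readings of the single genes. In the KRT8 bin the means were 7.16 kb ± 3.57 (set A) and 17.2 kb ± 4.37 (set B) (log2 -1.20, SE 0.60, adjusted p = 0.269), and in the KRT18 bin 13.3 kb ± 4.43 and 4.56 kb ± 1.95 (log2 1.38, SE 0.52, adjusted p = 0.125). The sets did not overlap in either bin, and neither difference passed the test.

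The comparison of set A with set C uses the same 2 set A lines as that with set B. Against set C, limma called 2 of 17 keratin bins, both lower in set A, against 13% of all bins called in either direction and 7.23% called lower. They hold KRT80 and KRT7. At KRT80 set C had 10.1 kb ± 5.88 (SD, n = 8 lines; lowest 4.16, highest 22.1 kb) and set A 0, or -3.30 on the log2 scale (SE 0.55, limma adjusted p = 0.00147), which stayed called in all 17 alternative fits (adjusted p at most 0.0440). At KRT7 (chromosome 12, 52600001 to 52650000) LK2 had 1.07 kb and NCI-H520 1.77 kb, and set C 13.99 kb ± 8.79 (3.07 to 27.8 kb), or -2.37 on the log2 scale (SE 0.71, limma adjusted p = 0.0441). This call was lost in 9 of 17 alternative fits (adjusted p 0.0239 to 0.318), among them those without LK2 (0.315), NCI-H520 (0.212), HCC95 (0.0586) or HARA (0.0520), that without LK2 replicate 1 (0.0635) and that without NCI-H520 replicate 2 (0.0629).

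At KRT5 set C had 2.24 kb ± 4.73, with 13.2 kb in HARA, 4.69 kb in LC-1/SQSF and none in the other 6 lines, and the log2 difference of set A was -0.79 (SE 0.92, limma adjusted p = 0.597). KRT9/14 gave -1.60 (SE 0.53, adjusted p = 0.0667, and 0.0203 to 0.416 over 17 alternative fits, 6 of which called it) and KRT16/17 -1.44 (SE 0.89, adjusted p = 0.302). KRT8, KRT18, KRT6C/6A and KRT13/15/19 gave -0.14, 0.59, -0.05 and -0.60, with adjusted p from 0.404 to 0.977. Scaling bears on these splits. Of all bins called, 287 were higher and 457 lower in set A than in set B with scaling, and 122 and 310 without. Against set C there were 495 and 622 with scaling and 194 and 825 without, and the median log2 difference over all bins moved from -0.18 to -0.49 and from -0.10 to -0.63. When each list was cut to as many top peaks as the shortest, the splits were 205 and 180, and 297 and 239.

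Set B was set against set C in the same fit, and 0 of 17 keratin bins were called by limma, as were 0.00% of all bins. At an unadjusted p under 0.05 there were 6 keratin bins and 1020 bins in all. No other tool was run. The KRT5 bin stood at 3.05 on the log2 scale (SE 0.79, limma adjusted p = 0.293), the KRT16/17 bin 2.37 (SE 0.76, adjusted p = 0.355), the KRT6C/6A bin 2.08 (SE 0.74, adjusted p = 0.361) and the KRT9/14 bin 1.31 (SE 0.46, adjusted p = 0.356). KRT8 stood at 1.06, KRT13/15/19 at 0.42 and KRT18 at -0.79. In no keratin bin were the sets apart, against 1.87% of all bins. Without HARA, an alternative chosen after its KRT5/6 value was seen, the KRT5 bin was called (log2 3.49, limma adjusted p = 0.0317).

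Bins elsewhere whose scaled length over the 13 lines followed that of the KRT5/6 zone most closely were ranked by Spearman's rho. The highest was at chromosome 8, 127900001 to 127950000 (rho 0.970), ahead of chromosome 15, 21900001 to 21950000 (0.930), chromosome 1, 201250001 to 201300000 (0.924), chromosome 5, 150950001 to 151000000 (0.924), and chromosome 17, 5250001 to 5300000 (0.916). They are the top of 8586 bins ranked, many lines are tied at 0, and the bins share libraries and scaling.

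Sox2 was mapped in 5 unmodified lines, and 59 merged Sox2 sites lay in the keratin windows. Of these, 42 were bound in 1 line and 4 in all 5 lines (6.78%, against 0.790% of the 35819 sites of the genome). The 4 shared sites lie between keratin genes or among the keratin-associated protein genes, not at a keratin start. One is 10.7 kb from KRT81 (chromosome 12, 52673921 to 52674603) and was acetylated in all 13 lines. The next, 17.5 kb from KRT20 (chromosome 17, 39058087 to 39058827), was acetylated in 10 lines, LK2 not among them. The third, 22.8 kb from KRT40 (39165154 to 39166413), was acetylated in HCC95 and NCI-H520 alone. The last, 6.5 kb from KRT31 among the type I hair keratins (39559913 to 39561070), was acetylated in 11 lines. All 4 were bound in LK2_GFP and LK2_DNp63 too, and the third and the last also carried Brn2 in LK2.

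The site near KRT31 held the highest-scored type I Sox2 peak of every list but that of KNS62, whose highest was the site near KRT20. By the authors' score, which ranks peaks within a list, it stood at rank 13 of 7511 in HCC2814, 100 of 14048 in HCC95, 106 of 7611 in LK2, 348 of 12048 in NCI-H520, 114 of 12034 in LK2_GFP and 36 of 4217 in LK2_DNp63. In the type II window the highest Sox2 peaks lay elsewhere in each line. That of HCC2814 was at the KRT6A start (52887036 to 52887457, 0.2 kb away, rank 487), that of HCC95 4.3 kb from KRT74 (52972024 to 52972591, rank 2579), that of KNS62 7.8 kb from KRT1 (53065860 to 53066630, rank 628), that of NCI-H520 the shared site near KRT81 (rank 1786) and that of LK2 3.0 kb from KRT8 (53301334 to 53302650, rank 4238). LK2_GFP had its highest at the same place near KRT8 (rank 2569), and LK2_DNp63 at the site near KRT81 (rank 941).

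At KRT5/6, HCC2814 had 5 Sox2 peaks, HCC95 2, KNS62 1, NCI-H520 1 and LK2 0. The HCC95 peaks were 1.4 and 3.7 kb from the KRT5 start (52915165 to 52915577 and 52917567 to 52917834), and an HCC2814 peak lay between them, 2.4 kb from it (52916185 to 52916678). These 3 sites do not overlap, and each was bound in 1 line and acetylated in the 5 lines with H3K27ac at KRT5. The NCI-H520 peak was shared with HCC2814 (52848109 to 52848912, 2.5 kb from KRT6B) and was not acetylated in either line. At KRT14/16/17, a site 7.0 kb from KRT14 (39735766 to 39736303) was bound in HCC95, HCC2814 and NCI-H520, and acetylated in HCC95 and HCC2814 but not in NCI-H520. Sox2 was thus found in NCI-H520 at both basal keratin zones, at sites without H3K27ac in that line.

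KRT15 and KRT19 are neighbours whose nearest Sox2 sites were bound in different lines. A site 0.3 kb from the KRT15 start (39675003 to 39675568) was bound in HCC95, KNS62 and HCC2814 and in neither set A line, and one 0.4 kb from the KRT19 start (39685169 to 39685714) in LK2 and NCI-H520, with LK2_GFP, and in no set B line. NCI-H520 also had a peak 2.5 kb from the KRT15 start (39677256 to 39677702), between both genes. KRT13 had sites 1.2 and 1.9 kb from its start in HCC95, the second also in HCC2814. In all, 37 of 59 keratin sites (62.7%) were bound in set B lines only, against 53.6% of all sites, and 13 (22.03%) in set A lines only, against 36.8%. The totals behind these shares are 28 Sox2 peaks in the windows in HCC95, 19 in KNS62, 18 in HCC2814, 19 in NCI-H520 and 8 in LK2. With the top 4217 peaks of each list they were 10, 10, 12, 7 and 4.

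**Figure D3:**
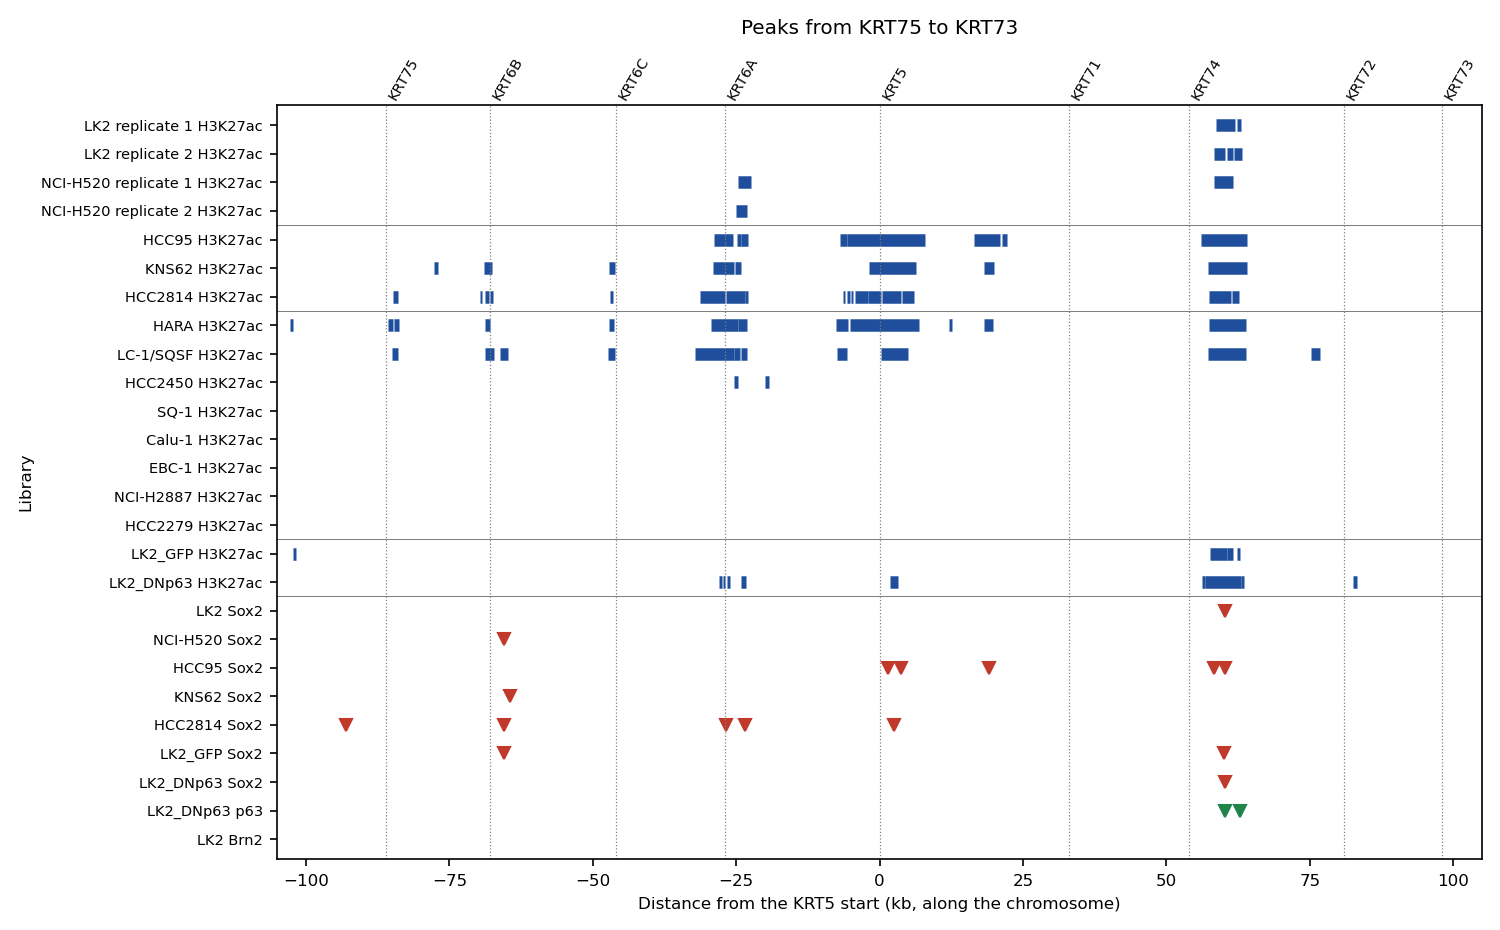
Peaks along the chromosome around KRT5, by distance from its start in kb, with H3K27ac peaks as blue bars (17 libraries), Sox2 as red and p63 as green triangles, and gene starts as dotted lines. H3K27ac covers KRT6A and KRT5 in HCC95, KNS62, HCC2814, HARA and LC-1/SQSF, and the stretch near KRT74 also in both LK2 libraries, NCI-H520 replicate 1 and both derivatives, where both p63 peaks of the plot lie.

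Sox2 peaks in the keratin windows were acetylated in their own line in 25 of 28 cases in HCC95 (89.3%, Wilson 95% interval 72.8 to 96.3), against 56.1% of all its Sox2 peaks. In KNS62 it was 14 of 19 (73.7%, 51.2 to 88.2) against 60.6%, in HCC2814 10 of 18 (55.6%, 33.7 to 75.4) against 38.3%, in LK2 6 of 8 (75.0%, 40.9 to 92.9) against 39.5% and in NCI-H520 11 of 19 (57.9%, 36.3 to 76.9) against 60.9%. The interval of HCC95 lay above the share of its whole list. That of LK2 did so narrowly, starting at 40.9 against 39.5%, and the other 3 intervals included the share. Intervals cover counting error only and treat the peaks of a library as independent. Peaks of the same window are neighbours, so the intervals may be too narrow. Whether the shares differ from those of the whole lists was thus not tested.

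Brn2 had 5 peaks in the windows in LK2 and 0 in NCI-H520, whose list is shorter (1298 peaks against 4819). All 5 lay in the type I window. The highest (39560155 to 39560682, score 184.76) was inside the shared Sox2 site near KRT31. A further peak, 12.5 kb from KRT23 (39106313 to 39106692), overlapped Sox2 and H3K27ac of LK2, and one at 39165570 to 39165858 overlapped the shared Sox2 site near KRT40. The other 2 overlapped no Sox2 peak and were acetylated in no line. No Brn2 peak lay near KRT5/6, KRT8/18 or KRT14/16/17.

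In LK2_DNp63, the only line with p63 ChIP, 8 of 3159 p63 peaks lay in the windows, with none at KRT5/6 or KRT14/16/17. The highest (chromosome 12, 52973666 to 52974642, score 298.69, rank 69) was 6.2 kb from KRT74, in the zone next to KRT5. It overlapped Sox2 peaks of LK2_DNp63, LK2_GFP, LK2 and HCC95 and was acetylated in 7 lines, LK2 and NCI-H520 included. A lower-scored p63 peak stood 8.8 kb from KRT74 (52976430 to 52977214, score 74.91). The KRT8/18 zone held 1 p63 peak (53270129 to 53270852, score 78.83), whose nearest keratin start was that of KRT78, 27.5 kb away. It was acetylated in HCC95, HARA, KNS62, HCC2814, LC-1/SQSF and LK2_DNp63, and in neither LK2_GFP nor LK2. The highest type I peak (39222081 to 39222902, score 243.45, rank 133) was among the keratin-associated protein genes and was acetylated in HCC2814, HCC2450, SQ-1, Calu-1 and LK2_DNp63. In the KRT13/15/19 zone, 1 peak (39651745 to 39652401, score 60.01) was 6.1 kb from KRT36 and acetylated in LK2_DNp63, HCC95, KNS62, Calu-1, SQ-1, HCC2450 and LC-1/SQSF.

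By library, H3K27ac of LK2_DNp63 overlapped 7 of the 8 keratin p63 peaks (87.5%, Wilson 95% interval 52.9 to 97.8, against 47.7% of all p63 peaks), and H3K27ac of LK2_GFP overlapped 4 (29.3% of all p63 peaks). Set B lines overlapped 5 each, HARA 3 and LC-1/SQSF 4, and the LK2 libraries 3 and 2. Where 50% of the shorter peak had to be shared, LK2_DNp63 overlapped 5, LK2_GFP 4, HCC2814 3, SQ-1 2 and Calu-1 1. Sox2 of LK2_DNp63 overlapped 2 of the 8 (9.56% of all p63 peaks), and 1 at 50%. Shares of all p63 peaks were not computed at 50%, so the counts at 50% have no background.

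**Figure D4:**
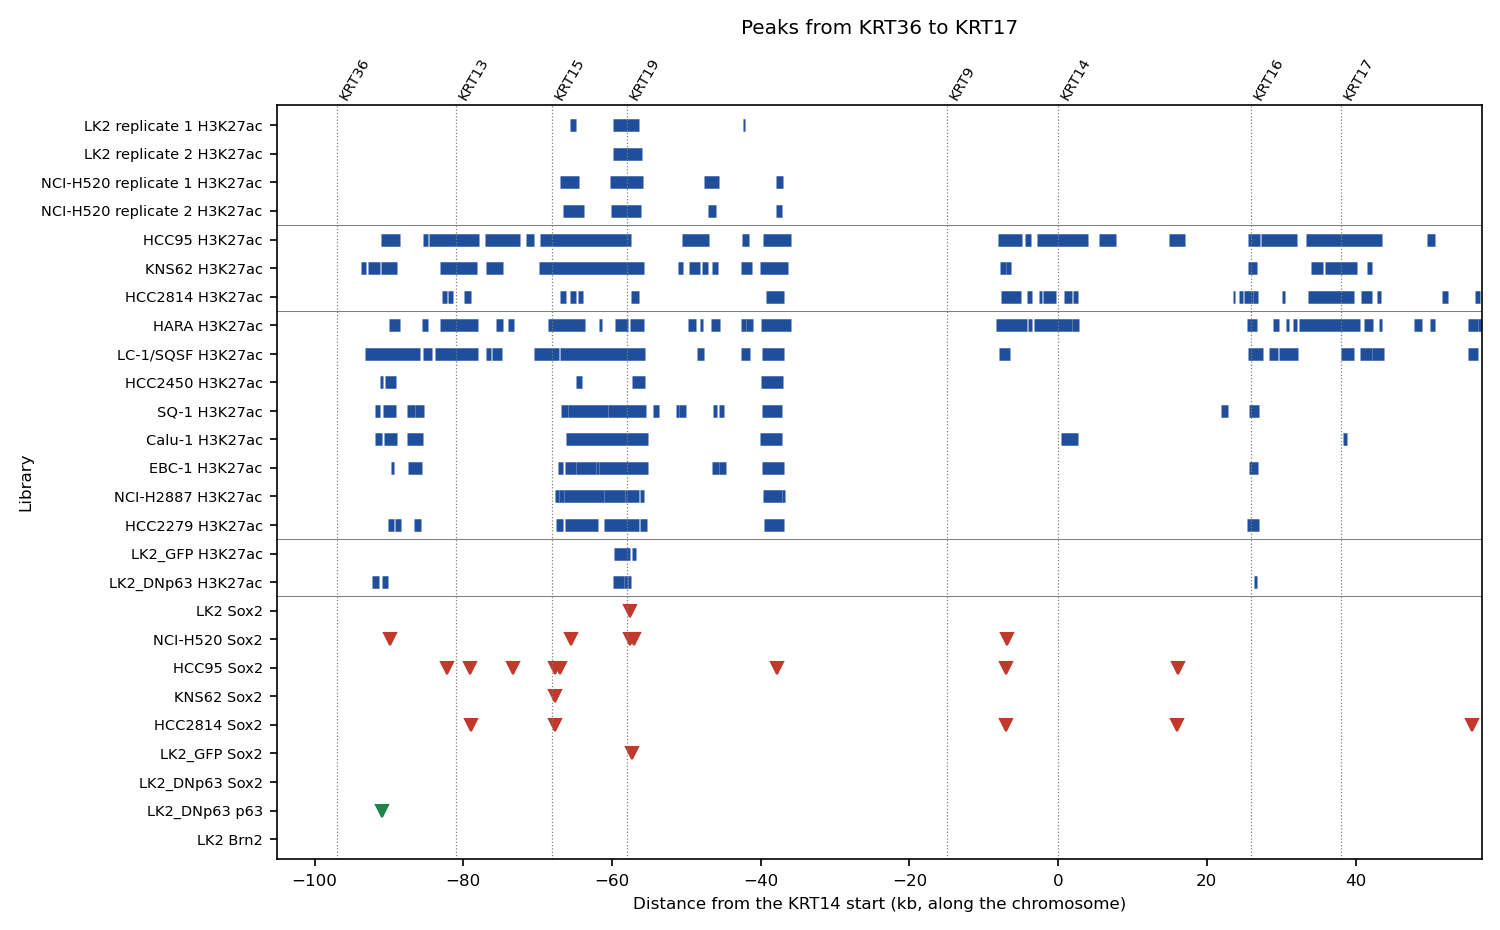
Peaks along the chromosome around KRT14, by distance from its start in kb, with symbols as in the map around KRT5. Lines with H3K27ac at KRT14 or at KRT16 and KRT17 are mainly HCC95, KNS62, HCC2814, HARA and LC-1/SQSF, whereas KRT19 carries H3K27ac in every library, and Sox2 marks KRT15 in set B lines and KRT19 in LK2, NCI-H520 and LK2_GFP.

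LK2_DNp63 was set beside LK2_GFP, with 1 H3K27ac library each, so no difference between them was tested. At KRT5/6 covered length was 3.71 kb in LK2_DNp63, 0.403 kb in LK2_GFP and 0 in both LK2 libraries. Scaled, this is 5.07 and 0.596 kb, a log2 difference of 1.93. The LK2_GFP peak lay away from KRT6A and KRT5, at the KRT75 end of the zone. At KRT14/16/17 LK2_DNp63 had a single peak of 0.429 kb (39769312 to 39769740), 0.5 kb from the KRT16 start, and the 3 other libraries had none. At KRT8/18 the lengths were 22.1 kb in LK2_DNp63, 16.045 kb in LK2_GFP, and 12.998 and 14.7 kb in LK2. Scaled, they were 30.2, 23.7, 22.3 and 29.8 kb, so the log2 difference was 0.34 against LK2_GFP and 0.019 against LK2 replicate 2. KRT13/15/19 had 4.05 kb in LK2_DNp63 and 2.62 kb in LK2_GFP, and the LK2 libraries had 4.36 and 3.91 kb, so LK2_DNp63 did not stand outside the other libraries there.

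Longer H3K27ac in LK2_DNp63 was also found away from the basal keratins. At KRT12/20/23 it covered 11.5 kb, against 3.65 kb in LK2_GFP and 2.21 and 1.09 kb in LK2 (log2 1.38 after scaling). For KRT39, KRT40 and the keratin-associated protein genes the lengths were 9.66, 3.47, 1.53 and 2.07 kb (log2 1.21). The type I hair keratins had 9.52, 2.55, 3.64 and 3.88 kb (log2 1.55). Of 16 zones, 4 were past a log2 difference of 1 and 0 past -1. For type I hair the difference depends on the comparison library, since it was 0.95 against LK2 replicate 1 and 0.66 against LK2 replicate 2. At KRT5/6 it was 2.60 against either LK2 library, and 0.85 with a pseudocount of 5000 bp.

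In bins of 50 kb, 3 of 12 keratin bins were higher in LK2_DNp63 by a log2 difference of at least 1, against 4.36% of all 8456 bins, and 0 were lower by as much, against 3.89%. They lie near KRT23 (39050001 to 39100000, 8.93 against 2.56 kb), over the keratin-associated protein genes (39200001 to 39250000, 6.60 kb against 0) and near KRT31 (39550001 to 39600000, 11.7 against 3.22 kb). The middle one holds the highest type I p63 peak, and the last the Sox2 site bound in all lines. KRT5/6 is not among the bins because in each of its bins the mean of both libraries was under 2 kb.

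Of the 55 keratin H3K27ac peaks of LK2_DNp63, 27 were absent from LK2_GFP (49.1%, against 26.6% of all its peaks), and of the 38 of LK2_GFP, 5 were absent from LK2_DNp63 (13.2%, against 26.5%). These 27 peaks included 4 at KRT6A, of which 3 lay within 0.7 kb of its start, and 1 at KRT5, 2.5 kb from its start (52915809 to 52917211, 1.40 kb long, score 250.46). All 3 at the KRT6A start, and that at KRT5, were also acetylated in HCC95, KNS62, HCC2814, HARA and LC-1/SQSF, and in no other unmodified line. The KRT5 peak covers the Sox2 site of HCC2814 near KRT5 and lies between the 2 Sox2 sites of HCC95. Sox2 of LK2_DNp63 had no peak at KRT5/6, and that of LK2_GFP had 1, at the site near KRT6B. Over both windows, 1 of 7 Sox2 peaks of LK2_DNp63 was absent from LK2_GFP (14.3%, against 17.6% of its list) and 5 of 12 Sox2 peaks of LK2_GFP were absent from LK2_DNp63 (41.7%, against 70.8%), whose list is the shorter.

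Of the 27, 15 were present in at least 1 set B line, 2 in LK2 and 2 in no other line. A p63 peak lay on 4 of them. They were near KRT74 (52976986 to 52977563) and in the KRT8/18 zone, 27.4 kb from KRT78 (53269665 to 53271136). The others were among the keratin-associated protein genes (39222827 to 39223300) and near KRT36 (39652039 to 39652826). None of the 5 at KRT6A and KRT5 overlapped a p63 peak. Sox2 of LK2_DNp63 lay on 1. These overlaps were not counted for all 8029 LK2_DNp63 peaks absent from LK2_GFP, so no background share stands beside them. Counted by gene, 5 keratin starts were acetylated in LK2_DNp63 and in none of LK2_GFP and the LK2 libraries: KRT6A (1.47 kb), KRT5 (0.192 kb), KRT16 (0.429 kb), KRT72 (0.495 kb) and KRT31 (0.429 kb). The KRT5 length is the edge of the peak centred 2.5 kb away, and starts were placed to 1 kb, so this count may depend on the rounding. Without an hg19 annotation, no share over all gene starts can be set beside the 5. No start was acetylated in LK2_GFP and not in LK2_DNp63, and 5 were acetylated in both, those of KRT80, KRT8, KRT18, KRT23 and KRT19. Basal and squamous starts were thus acetylated in 3 of 7 cases in LK2_DNp63, KRT5 by that edge alone, and in 0 in LK2_GFP and LK2. The starts of KRT14, KRT17, KRT13 and KRT15 stayed without H3K27ac.

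**Figure D5:**
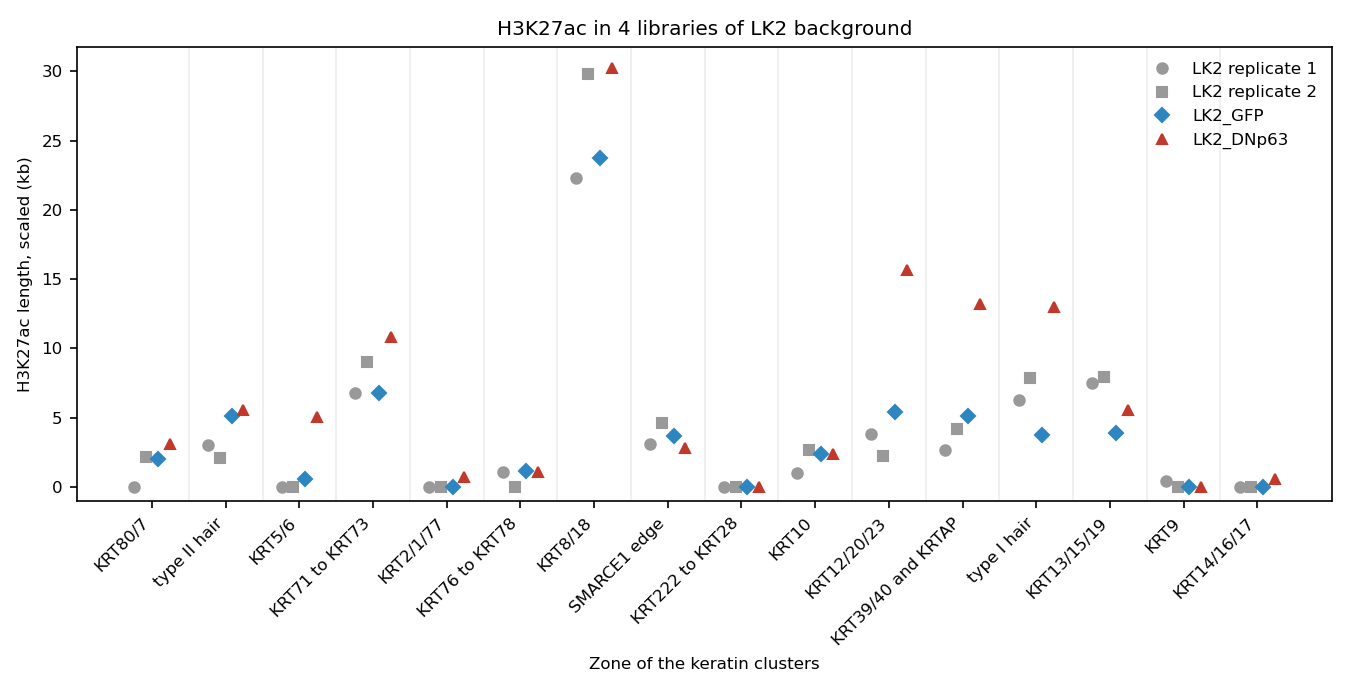
Scaled H3K27ac length in kb (vertical axis) in each keratin zone for LK2 replicates 1 and 2 (grey), LK2_GFP (blue) and LK2_DNp63 (red), 1 symbol per library. LK2_DNp63 stands above the others at KRT5/6 (5.07 kb) and furthest above them at KRT12/20/23 (15.7 kb), the keratin-associated protein genes (13.2 kb) and type I hair (13.01 kb), and inside their range at KRT13/15/19.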

How the data were processed

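ChIP-seq peak lists of H3K27ac, Sox2, p63 and Brn2 were used. The deposited lists hold positions and names of peaks, each with a score whose scale the authors do not state in the sources used here. The submitters' processing notes name Bowtie2 and the build hg19 (GRCh37). The sources used here do not give peak calling, thresholds, use of inputs or read depth, so an absent peak says only that none was listed. Brn2 chromatin was cross-linked and digested differently, per the labels' protocols.

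Only peaks of the autosomes and X were kept, 650700 of 652792. Coordinates are hg19 and 1-based, except for promoters. No hg19 annotation was used here. Zones (to 10 kb) and keratin starts (to 1 kb) were set by hand from general knowledge of hg19, and names and order of 55 of 55 genes matched RefSeq GRCh38.p14. Distances to starts are thus approximate. Values are base pairs covered by H3K27ac peaks, scaled to 50 Mb per library where stated. The fit was made with R 4.3.3 and limma 3.58.1 (mean-variance trend, Benjamini-Hochberg adjustment, threshold 0.05) on log2(scaled length + 1000 bp), which understates changes of bins with little length. LK2 and NCI-H520 have 2 libraries each, averaged to 1 value per line. The labels do not say whether these are separate cultures, and lines, not libraries, are the replicates, so a p-value reflects no more than the spread among these samples, which may be technical. Peaks overlap where they share 1 bp. Shares carry Wilson 95% intervals.

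Text values follow a rule: every zone by line or as its range over lines, every tested bin over KRT5/6, KRT8/18, KRT13/15/19 and KRT14/16/17, other keratin bins where called, the highest factor peak of each window, and the p63 peaks of the basal and KRT8/18 zones. Peaks listed for LK2_DNp63 and not LK2_GFP, and single Sox2 sites near keratin starts, were named after their values were seen. Members, lists and tests were chosen with earlier results of these data known. Alternatives were other pseudocounts, no filter, no scaling, equal numbers of top peaks, the compared sets alone, a shifted grid, left-out libraries and lines, wider zones and a 50% overlap. Those without HARA or LC-1/SQSF were chosen after seeing the data.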

Additional observations from a re-analysis of the deposited data

Results flagged for a closer look

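In 16 zones, the highest and the lowest of the 8 set C lines were compared with the other lines, and 4 zones held a line far from the rest of its set. With normally distributed values, chance alone would mark about 1 in 20 groups in this way. Covered lengths cannot fall under 0 and some are tied there, so the rate for these zones is not known. All values are scaled H3K27ac length. HARA had 22.3 kb at KRT14/16/17, where the next line of set C had 9.51 kb. SQ-1 had 17.7 kb at KRT12/20/23, where the next line had 7.64 kb, and 27.8 kb among the type I hair keratins, where the next had 12.6 kb. NCI-H2887 had 0.281 kb over KRT222 to KRT28, and the 7 other lines had none. With those lines tied at 0, any peak in an 8th line stands apart.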

How the results depend on the processing

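Between set A and set B, 4 keratin bins were called (limma), 2 without scaling, 1 with lists cut to equal numbers of top peaks, and 0 to 5 when a library or line was left out. Between set A and set C, 2 were called, 4 with a pseudocount of 200 bp, 1 with 5000 bp, 1 without the filter, and 1 to 3 with left-out libraries or lines. Between set B and set C the count was 0, and 1 without HARA. Of the bin differences recomputed, 413 kept direction and side of the threshold, 29 fell below it, 7 passed it and 10 turned sign, none of these called. For set A minus set C, KRT6C/6A turned to 0.15 (pseudocount of 200 bp) and 0.16 (top peaks) and ran from -0.85 (without NCI-H520) to 0.75 (without LK2) with left-out libraries or lines, 0.0079, 0.23 and 0.26 without NCI-H520 replicate 2, HARA or LC-1/SQSF. KRT8 ran from -0.60 (without LK2) to 0.32 (without NCI-H520), 0.036 without HARA, and KRT18 turned to -0.048 without scaling. For set B minus set C, KRT80 ran from -0.72 (without KNS62) to 0.28 (without HCC2814). The cause was not tested. Over all bins, the 744 called between sets A and B became 432 without scaling, 385 with top peaks, 1826 without the filter, 340 and 495 without LK2 or HCC95, and 1.82% of bins in place of 8.65% without NCI-H520. The 1117 between sets A and C became 536 with top peaks, 2213 without the filter, and 414 and 238 without LK2 or NCI-H520. The 0 between sets B and C became 4, 1, 35, 5 and 3 with a pseudocount of 200 or 5000 bp, no filter, top peaks, or these sets alone, and 2, 16 and 49 without KNS62, HARA or LC-1/SQSF. No paired analysis was possible because only LK2 and NCI-H520, both in set A, have numbered replicates. Unknown depth limits every statement on an absent peak.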
